A study of Mus musculus with 9 samples.

Results

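The genes described here are 8 of the 25860 genes in the count table and belong to the interleukin-1 (IL-1) family: the receptors and receptor chains Il1rl1, Il1rap and Il1r1, the ligands Il33, Il1a and Il1b, the antagonist Il1rn and the adaptor Myd88. They were taken by symbol, and the set was chosen by the genotype difference of Il1rl1. In the quasi-likelihood test of edgeR, Benjamini-Hochberg adjustment put its p at 0.0494, and it ranked 86 among the 87 genes under 0.05. Nearest outside that threshold among the members was Il1rn, for which the edgeR value was 0.624. Because this contrast was used to choose the set, the members' own differences between genotypes are given as a description without a test. Of the 8 genes, 6 passed the filter on low counts and 2, Il1a and Il1b, did not.

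RNA was measured in cultured calvarial (skull vault) cells of mouse pups aged 2 to 4 days, which were kept in medium with 10% serum, sorted by flow cytometry for Osx1-Cre and harvested at 90% confluence. Osx1-Cre is a Cre recombinase transgene under control of the osterix (Sp7) promoter, which is active in bone-forming cells and their precursors, and, per the series text, both groups consist of such sorted cells. The groups are IRE1KO (5 libraries) and WT (4 libraries), each library being 1 pool of cells from 3 to 5 pups; strain, sex, litter and the exact allele of Ern1, the gene of the stress sensor IRE1, are not in the labels. The question is how these genes differ between cells labelled as lacking IRE1, which senses unfolded proteins in the endoplasmic reticulum, and cells labelled wild type.

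IL-33 is a cytokine of stromal and epithelial cells that is stored in the nucleus and released on damage. It binds the receptor chain ST2, encoded by Il1rl1, which then pairs with the accessory chain encoded by Il1rap. The same accessory chain pairs with the IL-1 receptor Il1r1 after IL-1 alpha or IL-1 beta has bound, and both complexes recruit MyD88 to activate NF-kB and MAP kinases. The antagonist encoded by Il1rn occupies Il1r1 without recruiting the accessory chain, and a soluble form of ST2, lacking the membrane and signalling parts, captures IL-33. In bone, IL-1 is known as a stimulus of osteoclast formation, and IL-33 has been studied as an inhibitor of it.

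The RefSeq table lists 2 transcription starts for Il1rl1, and both are shown because its read count adds their products together. The upstream start was placed at 40429570 and the downstream start at 40439629 on the plus strand of chromosome 1 (RefSeq, GRCm38.p6). The sequences below run from 250 bases before each start to 20 bases after it, and capitals mark motif matches on either strand.
Il1rl1 upstream start, chr1:40429320-40429589: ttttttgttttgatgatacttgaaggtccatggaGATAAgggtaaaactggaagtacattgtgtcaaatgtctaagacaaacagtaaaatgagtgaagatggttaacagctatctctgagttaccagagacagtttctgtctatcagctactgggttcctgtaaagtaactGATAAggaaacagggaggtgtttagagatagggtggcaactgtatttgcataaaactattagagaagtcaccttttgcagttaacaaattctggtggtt
Il1rl1 downstream start, chr1:40439379-40439648: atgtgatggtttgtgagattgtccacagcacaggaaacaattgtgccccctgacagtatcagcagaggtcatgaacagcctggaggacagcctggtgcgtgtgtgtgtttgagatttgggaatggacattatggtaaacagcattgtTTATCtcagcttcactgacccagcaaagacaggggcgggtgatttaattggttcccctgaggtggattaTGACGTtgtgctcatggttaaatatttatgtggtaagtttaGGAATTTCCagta
Of 4 motifs searched on both strands, GATAA (the core of a GATA factor site) was found in both windows, at positions -216 and -79 from the upstream start and, on the minus strand as TTATC, at -103 from the downstream start. TGACGT, the core of the cAMP response element, lay at -34 from the downstream start. GGAATTTCC, an NF-kB site, lay at 8 after the downstream start, and TGANTCA, the AP-1 site, was in neither window. Among 32851 promoter windows of the same length, 23.8% held GATAA, 7.1% TGACGT, 0.3% GGAATTTCC and 7.2% TGANTCA; the motifs do not overlap in these windows, and a match is a string of letters, not a binding site.

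In GENCODE M21 (GRCm38) Il1rl1 spans 40429570 to 40465415 on chromosome 1 (ENSMUSG00000026069). Its transcripts encode either the full receptor, with 567 residues, a short protein of 337 residues or a fragment of 65 residues, and the 337-residue form is annotated from both the upstream and the downstream region. The deposited value is 1 count per gene, so the membrane receptor cannot be told apart from the soluble form, nor 1 start from the other. The gene ends 136 bases before Il18r1 begins on the same strand, but Il18r1 had at most 13 counts in any library.

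Library totals ranged from 18784636 to 22028075 counts, and a count of 3, the floor used here, corresponded to 0.136 to 0.16 CPM (counts scaled to library size). WT library 4 stood apart on the first principal component (45.9% of the variance), at 56.7 against -23.4 to 15.1 for the others, so fold changes below are also given without it where they turn on it. Ern1 was at 49.8 to 55.8 CPM in IRE1KO and 41.5 to 54.2 CPM in WT, so its whole-gene count was not lower in IRE1KO. A count over the whole gene cannot reveal a deletion of single exons, so it is no check of the labels. Among osteoblast-lineage and stromal markers, Col1a1 was at 15462 to 31100 CPM and Sp7 at 13.6 to 24.6 CPM, while Bglap, the osteocalcin of mature osteoblasts, had at most 4 counts in any library.

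Il1rl1 was higher in every IRE1KO library than in every WT library. In CPM scaled by TMM (trimmed mean of M values, a library-size correction), IRE1KO libraries 1 to 5 had 366.3, 376.2, 325.8, 305.9 and 319.1, and WT libraries 1 to 4 had 178.8, 161.6, 135.7 and 69.6. The lowest IRE1KO library was 1.71 times the highest WT library, and WT library 4 was by far the lowest. Means were 338.7 ± 30.8 CPM in IRE1KO (SD, n = 5) against 136.4 ± 47.9 CPM in WT (SD, n = 4), a 2.48-fold difference in fitted level (log2 fold change 1.31 ± 0.23 SE). Leaving out WT library 4 gave a log2 fold change of 1.09, and leaving out WT library 1 gave 1.47. The adjusted p that placed Il1rl1 in the set was under 0.05 in 2 of the 9 edgeR fits that left out 1 library, those without WT library 1 (0.0163) and without WT library 4 (0.00484), and ranged from 0.123 to 0.146 in the other 7.

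Per kilobase of exon, Il1rl1 stood among the more abundant transcripts of these cells. At 49.1 ± 4.47 CPM per kb (SD, n = 5) it exceeded 96.9% of the 24957 genes with an annotated length in IRE1KO, and at 19.8 ± 6.95 CPM per kb (SD, n = 4) 90.2% of them in WT. It thus lay at the level of Il1r1 in WT, and above every other member in IRE1KO.

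**Figure D1:**
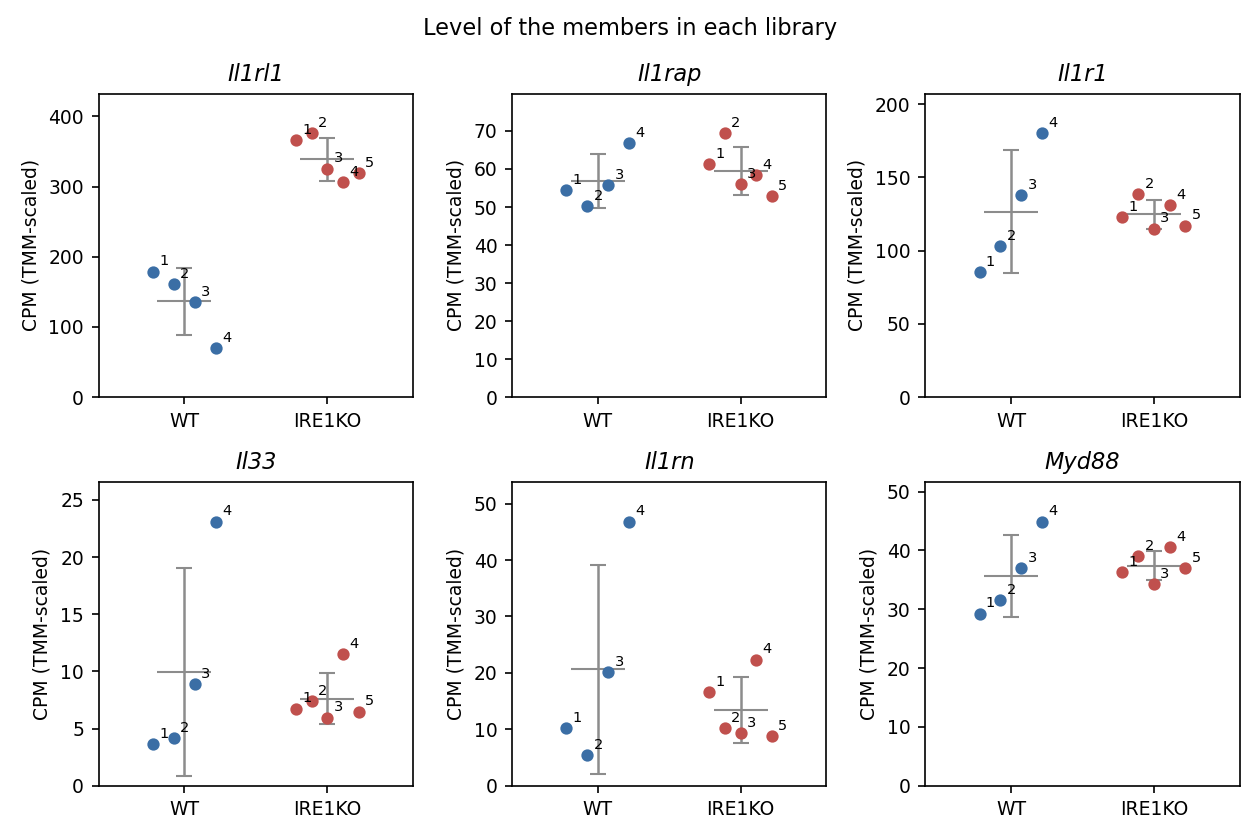
Level of 6 members in each library, in CPM scaled by TMM (y axis, from 0), with WT in blue and IRE1KO in red; numbers are library numbers and grey bars are mean and SD. For Il1rl1 the IRE1KO libraries, at 305.9 to 376.2 CPM, all lie above the WT libraries, at 69.6 to 178.8 CPM, while for the other 5 genes the groups overlap.

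The receptor chains that work beside Il1rl1 did not separate the groups. Il1rap (chromosome 16, 26581704 to 26730117), the shared accessory chain, was at 61.2, 69.4, 56.0, 58.4 and 52.8 CPM in IRE1KO libraries 1 to 5 and at 54.4, 50.2, 55.7 and 66.8 CPM in WT libraries 1 to 4. Its groups overlapped almost fully, with a log2 fold change of 0.07 ± 0.098 SE. Il1r1 (chromosome 1, 40225080 to 40317257), the signalling receptor for IL-1, was at 122.9, 138.8, 115.0, 131.1 and 117.0 CPM in IRE1KO libraries 1 to 5. In WT libraries 1 to 4 it was at 85.6, 103.0, 138.1 and 180.3 CPM, so that the IRE1KO values lay inside the WT range and WT library 4 was highest. The log2 fold change of Il1r1 was -0.02 ± 0.19 SE, and 0.20 without WT library 4.

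The ligand of Il1rl1 was at lower levels than its receptor and varied more within WT than within IRE1KO. Il33 (chromosome 19, 29925114 to 29960718) was at 6.75, 7.42, 5.95, 11.5 and 6.47 CPM in IRE1KO libraries 1 to 5. In WT libraries 1 to 4 it was at 3.63, 4.16, 8.89 and 23.1 CPM, a 6.37-fold range that contained all IRE1KO libraries. The log2 fold change was -0.38 ± 0.51 SE, and its sign turned to 0.46 without WT library 4, so no direction can be given for Il33.

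Transcripts of the classical IL-1 agonists were at or below the floor. Il1b, the IL-1 beta gene (chromosome 2, 129364570 to 129371139), had 0 counts in all 9 libraries, and Il1a, the IL-1 alpha gene (chromosome 2, 129299610 to 129309972), had 3 counts in IRE1KO library 3, 1 in IRE1KO library 5 and 0 elsewhere. A count of 0 allows a level of up to 0.136 to 0.16 CPM, depending on the library, and covers counting error only. No fold change is given for either gene.

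Reads of the antagonist exceeded those of both agonists. Il1rn (chromosome 2, 24336853 to 24351494), which encodes the IL-1 receptor antagonist, was at 16.5, 10.2, 9.30, 22.3 and 8.78 CPM in IRE1KO libraries 1 to 5 and at 10.2, 5.39, 20.2 and 46.8 CPM in WT libraries 1 to 4. WT library 4 was again highest, and the groups overlapped. The log2 fold change was -0.61 ± 0.57 SE and turned to 0.18 without WT library 4. Per kilobase, Il1rn was at least 12.1-fold to 102.9-fold higher than Il1a and Il1b combined, over the 7 libraries with 0 counts of both, taking 3 counts per library as their floor. In IRE1KO library 3 the ratio of Il1rn to Il1a was 20.8, with an exact 95% interval of 7.0 to 101.9 for counting error.

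The adaptor Myd88 (chromosome 9, 119335934 to 119341411) was steady in IRE1KO, at 36.3, 39.1, 34.3, 40.5 and 37.0 CPM in libraries 1 to 5. In WT libraries 1 to 4 it was at 29.3, 31.6, 37.0 and 44.9 CPM. The IRE1KO values lay inside the WT range, and the log2 fold change was 0.07 ± 0.12 SE. Myd88 overlaps Acaa1a on the opposite strand, and reads could be shared there, since the strand setting of the counting is not known here. It also overlaps Slc22a14 on the same strand, where reads could be shared under either setting, and Slc22a14 had at most 1 count in any library. Il1rap overlaps the antisense gene Gm20319, which had 0 counts in every library.

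Counted over the members that could be tested, 1 of 6 (Il1rl1) had groups that did not overlap, where 6.93% of all 13712 tested genes did (3.65% with IRE1KO above and 3.28% with IRE1KO below WT). By adjusted p, 1 of 6 was under 0.05, where 0.634% of all tested genes were (0.255% higher and 0.379% lower in IRE1KO). Since the contrast chose the set, nothing is read from these shares. The median log2 fold change of the 6 members was 0.02, beside -0.005 over all tested genes.

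The balance of receptor to ligand overlapped between the groups. Per kilobase of exon, Il1rl1 exceeded Il33 by ratios of 22.7, 21.2, 22.9, 11.1 and 20.6 in IRE1KO libraries 1 to 5 and of 20.6, 16.3, 6.39 and 1.26 in WT libraries 1 to 4. Receptor reads were in excess of ligand reads in all 9 libraries, and WT libraries 1 and 2 both lay inside the IRE1KO range. On the log2 scale the ratio of Il33 to Il1rl1 was lower in IRE1KO by a mean difference of -1.40, which was -0.57 without WT library 4.

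Set against its partner chains, Il1rl1 separated the groups. The ratio of Il1rl1 to Il1rap per kilobase was 9.86, 8.93, 9.58, 8.63 and 9.96 in IRE1KO libraries 1 to 5 and 5.42, 5.30, 4.02 and 1.72 in WT libraries 1 to 4. The mean was 9.39 ± 0.587 (SD, n = 5) in IRE1KO and 4.11 ± 1.72 (SD, n = 4) in WT. The ratio of Il1rl1 to Il1r1, which compares the chains that compete for Il1rap, was 2.15 to 2.75 in IRE1KO and 0.356 to 1.93 in WT, so that ST2 reads exceeded IL-1 receptor reads in every IRE1KO library and were below them in WT libraries 3 and 4. With the longest coding transcript as the length, this ratio was 1.08 in WT library 3, above 1, and 0.424 in WT library 4. Il1rl1 and Il1r1 together exceeded Il1rap by a ratio of 12.5 to 13.9 in IRE1KO and of 6.53 to 8.96 in WT. These ratios rest on the same Il1rl1 values that chose the set and carry no test. The height of a ratio also depends on the length assigned to each gene: with the longest coding transcript in place of all annotated exons, Il1rl1 to Il1rap was 4.86 ± 0.304 (SD, n = 5) in IRE1KO and 2.13 ± 0.889 (SD, n = 4) in WT. The fold between groups does not depend on length for a ratio of 1 gene to 1 other gene. For the ratio of Il1rl1 and Il1r1 together to Il1rap it does.

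**Figure D2:**
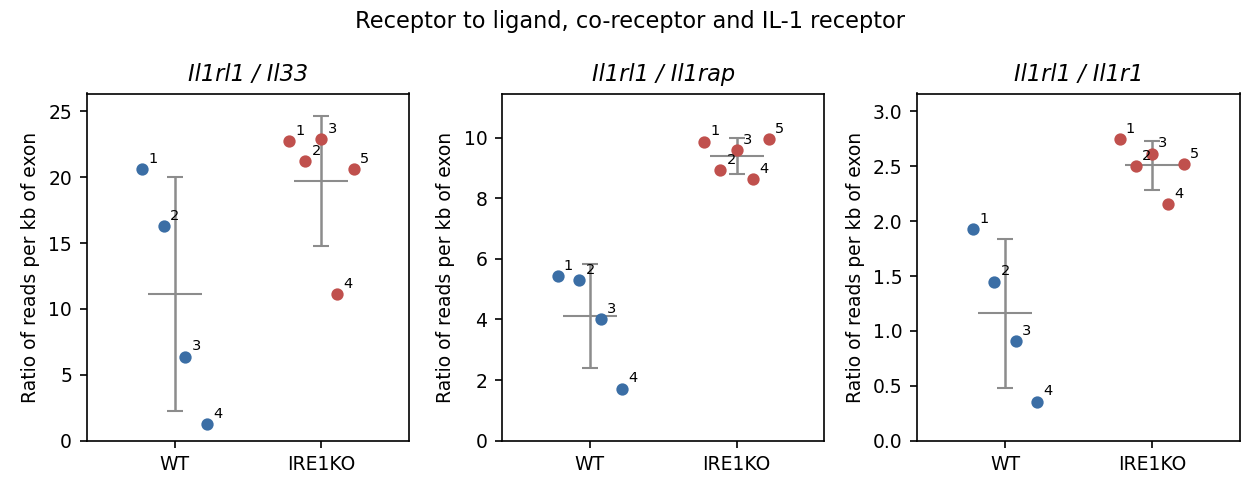
Ratio of Il1rl1 to Il33, Il1rap and Il1r1 in each library (y axis, reads per kilobase of exon over reads per kilobase of exon, from 0), with WT in blue, IRE1KO in red, library numbers, and mean and SD in grey. The ratio to Il1rap is 8.63 to 9.96 in IRE1KO and 1.72 to 5.42 in WT, whereas the ratio to Il33 overlaps between the groups.

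Within WT, Il1rl1 ran opposite to most of the other members. WT library 1 had the highest Il1rl1 level and the lowest Il33, Il1r1 and Myd88, and WT library 4 the lowest Il1rl1 and the highest of Il33, Il1r1, Il1rn, Myd88 and Il1rap. Across the 9 libraries, deviations from the group means correlated at r = -0.93 between Il1rl1 and Il33 and at -0.85 between Il1rl1 and Il1r1. The deviations of Il33, Il1r1 and Myd88 moved together, with r = 0.94 for Il33 and Il1r1, 0.98 for Il33 and Myd88 and 0.97 for Il1r1 and Myd88. Without WT library 4, with group means taken again, these 3 pairs had r = 0.85, 0.94 and 0.93, and Il1rl1 had r = -0.72 with Il33 and -0.55 with Il1r1. Within the 5 IRE1KO libraries alone, r was -0.38 between Il1rl1 and Il33 and 0.42 between Il1rl1 and Il1r1. All genes of a library share its depth and cell makeup, both of which can differ between libraries, and these correlations carry no test. WT libraries varied more than IRE1KO libraries for all 6 members, by coefficient of variation, and did so for 82.6% of all tested genes. WT library 4 was the highest WT library for 37.9% of tested genes and the lowest for 37.7%.

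**Figure D3:**
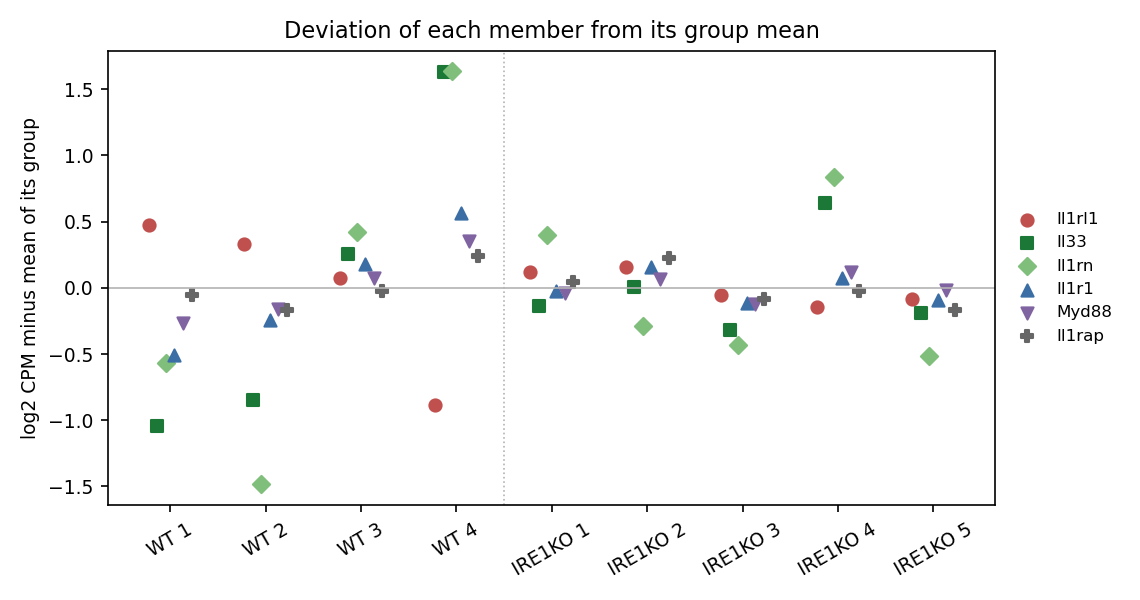
Deviation of each member from the mean of its group (y axis, log2 CPM) in each library (x axis), WT left and IRE1KO right of the dotted line. In WT library 4 Il1rl1 lies below 0 and the other 5 members above it, and the IRE1KO libraries scatter less.

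The genes whose levels most resembled that of Il1rl1 over the 9 libraries, by Pearson's r of log2(CPM + 0.5) among 10446 tested genes averaging 5 CPM or more, were Ppa1 (a pyrophosphatase, r = 0.988), Rerg (a Ras-like GTPase, 0.987), Slc41a2 (a magnesium transporter, 0.981), Calu (a calcium-binding protein of the secretory pathway, 0.981) and Enah (an actin regulator, 0.979). Without WT library 4, r was 0.96 to 0.984 for these 5 genes. Rerg, for example, was at 8.58 ± 0.586 CPM in IRE1KO (SD, n = 5) against 4.72 ± 1.26 CPM in WT (SD, n = 4), and Calu at 1245 ± 25.0 and 1118 ± 51.5 CPM. By deviations from the group means, which leave the genotype difference out, the nearest genes were Tnfrsf23 (a decoy receptor for TRAIL, r = 0.992), Htr2a (a serotonin receptor, 0.99), Cul4a (a ubiquitin ligase scaffold, 0.99), Klhdc4 (0.988) and Bzw1 (a regulator of translation, 0.988), with r of 0.913 to 0.948 without WT library 4. Htr2a was at 26.5, 24.2, 19.3 and 9.88 CPM in WT libraries 1 to 4 and at 18.8 to 23.3 CPM in IRE1KO, so it matched the spread of Il1rl1 within WT but not its difference between groups. Id3, a BMP target chosen after its values were seen, was the most opposed over the 9 libraries, at r = -0.985, with 115.0 ± 4.92 CPM in IRE1KO (SD, n = 5) against 159.8 ± 26.6 CPM in WT (SD, n = 4). These correlations are ranks among many genes and carry no test.

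Pathway genes outside the set were compared by the same test. Of 84 further genes in the table, 69 could be tested, and 1 rose and 0 fell at an adjusted p under 0.05 over all genes (edgeR), a share to be read beside the 0.634% called among all tested genes. At an unadjusted p under 0.05 there were 12 of the 69, and 2263 of all 13712. DESeq2 called 4 of the 69 (Cxcl5, Il1rl2, Cxcl1 and Tnfsf11, all higher) and 568 of all 13712. For limma voom these counts were 0 and 16. The groups did not overlap for 5 of the 69 genes, or 7.25%, close to the 6.93% of all tested genes. Their median log2 fold change was 0.02.

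Among the other receptors, none of 4 tested genes passed in edgeR, where 1 had an unadjusted p under 0.05; the other 3 of 7 were too low to test. That gene was Il1rl2, the receptor for the IL-36 cytokines and the neighbour of Il1rl1. Il1rl2 was at 32.1, 32.9, 30.7, 31.4 and 30.02 CPM in IRE1KO libraries 1 to 5 and at 24.2, 21.8, 25.1 and 28.6 CPM in WT libraries 1 to 4. Its groups did not overlap, with a log2 fold change of 0.33 ± 0.073 SE and 0.0774 as its adjusted p (edgeR). It ranged between 0.0157, leaving out WT library 4, and 0.209, leaving out WT library 3, in edgeR fits that left out 1 library. Il18rap, the accessory chain of the IL-18 receptor, was at 14.7 ± 1.33 CPM in IRE1KO (SD, n = 5) against 11.6 ± 4.30 CPM in WT (SD, n = 4), although its partner Il18r1 was near the floor. In WT libraries 1 to 4 Il18rap was at 14.7, 14.7, 11.5 and 5.59 CPM, lowest in library 4. The IRE1KO libraries, at 13.2 to 16.6 CPM, overlapped these. Il1r2, the decoy receptor for IL-1, was at 0.818 ± 0.275 and 0.655 ± 0.316 CPM, and Il1rapl1, a synaptic relative, at 0.464 ± 0.208 and 0.656 ± 0.262 CPM.

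Il1rl1 lies in a cluster of IL-1 family receptor genes on chromosome 1, in the order Il1r2, Il1r1, Il1rl2, Il1rl1, Il18r1 and Il18rap, all on the plus strand. Within 1000000 bases on either side of Il1rl1, 11 genes were tested, Il1rl1 and Il1r1 included. Of the 9 others none passed in edgeR, where 0.634% of all 13712 tested genes did, so nothing is read from this count. The log2 fold changes were 0.33 ± 0.073 SE for Il1rl2, 0.32 ± 0.40 SE for Il1r2 and 0.33 ± 0.24 SE for Il18rap. Map4k4 had 0.09 ± 0.053 SE and Slc9a2 -0.63 ± 0.54 SE, against 1.31 for Il1rl1.

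**Figure D4:**
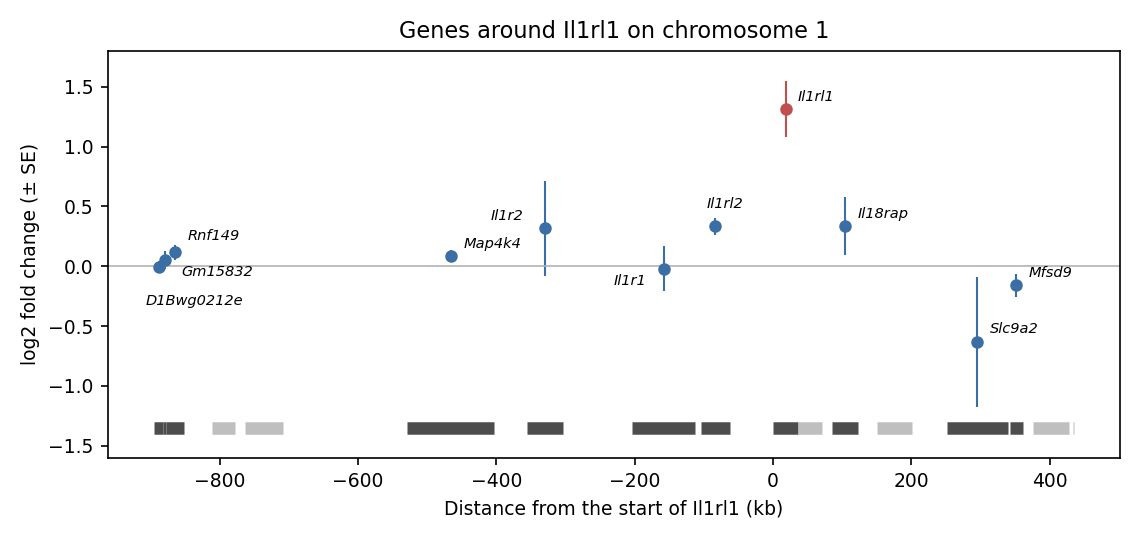
Log2 fold change, IRE1KO over WT, with SE (y axis) of the 11 tested genes around Il1rl1 by distance from its start in kb (x axis); bars along the bottom are gene bodies, dark where the gene was tested and light where it was too low. Il1rl1, in red, stands at 1.31, Il1rl2 at 0.33 ± 0.073 SE and Il18rap at 0.33 ± 0.24 SE.

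Of the other ligands and antagonists of the family, 2 of 7 could be tested and neither passed in edgeR at either an adjusted or an unadjusted p under 0.05. Il18, a relative of IL-1 beta, was at 7.19 ± 1.39 CPM in IRE1KO (SD, n = 5) against 6.88 ± 2.76 CPM in WT (SD, n = 4), and its binding protein Il18bp at 5.75 ± 1.77 and 5.82 ± 4.31 CPM. The 4 genes of IL-36 cytokines and their antagonist, listed as Il1f5, Il1f6, Il1f8 and Il1f9, had 0 counts in every library.

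Genes of the signalling chain below MyD88 were all expressed above the filter. All 30 genes were tested and none passed in edgeR, with 4 at an unadjusted p under 0.05 and a median log2 fold change of 0.02. Irak1, the kinase recruited by MyD88, was at 98.3 ± 3.06 CPM in IRE1KO (SD, n = 5) against 98.1 ± 5.77 CPM in WT (SD, n = 4), and Traf6, the ubiquitin ligase that follows, at 30.8 ± 2.23 and 31.1 ± 1.91 CPM. The smallest p-values belonged to Peli1 (log2 fold change 0.16 ± 0.060 SE) and Peli2 (-0.70 ± 0.27 SE), ubiquitin ligases that act on IRAK proteins, Map2k6 (-0.67 ± 0.27 SE), a kinase of p38, and Irak2 (-0.23 ± 0.094 SE). In edgeR their adjusted p-values were 0.228 to 0.264.

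Of 11 tested genes for the processing and release of IL-1 ligands, none passed in edgeR and 1 had an unadjusted p under 0.05. Pycard, the inflammasome adaptor ASC, was at 2.23 ± 0.564 CPM in IRE1KO (SD, n = 5) against 4.19 ± 2.10 CPM in WT (SD, n = 4). Gsdmd, which forms the membrane pores through which IL-1 leaves cells, was at 38.6 ± 4.17 and 32.2 ± 6.04 CPM, and Capn2, a calpain, at 725.8 ± 25.4 and 643.1 ± 132.0 CPM. Casp1 and Nlrp3, the inflammasome protease and sensor, were near 1 CPM, at 1.28 ± 0.430 and 1.19 ± 0.617 CPM in IRE1KO.

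Among genes known to be induced by IL-1 in fibroblastic cells, 23 of 28 were tested, and 1 rose and 0 fell. At an unadjusted p under 0.05 in edgeR there were 6 of the 23. The groups did not overlap for 4 (Cxcl5, Cxcl1, Tnfsf11 and Ccl7), or 17.4%, all with IRE1KO higher. Among all tested genes 6.93% did not overlap, 3.65% with IRE1KO above WT. The list was written with earlier results of these data known, so nothing is read from these shares. Cxcl5, a neutrophil-attracting chemokine, was at 187.1, 208.7, 137.2, 200.2 and 141.9 CPM in IRE1KO libraries 1 to 5 and at 82.8, 90.1, 112.9 and 84.0 CPM in WT libraries 1 to 4. Every IRE1KO library lay above every WT library, and Cxcl5 rose 1.89-fold (0.92 ± 0.15 SE in log2, with 0.0475 as the adjusted p from edgeR). It passed in 2 of the 9 edgeR fits that left out 1 library, those without WT library 1 and without WT library 4, and its adjusted p ranged from 0.0263 to 0.146 over the 9. Cxcl1, a related chemokine, was at 8.85 ± 1.13 CPM in IRE1KO (SD, n = 5) against 5.79 ± 0.993 CPM in WT (SD, n = 4), and Tnfsf11 (RANKL), the osteoclast differentiation factor, at 14.3 ± 0.663 and 10.3 ± 2.08 CPM. Neither passed in edgeR (adjusted p = 0.0852 and 0.110), nor did Bdkrb1, the inducible bradykinin receptor (log2 fold change 0.79 ± 0.24 SE).

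Ccl7, a monocyte-attracting chemokine, was at 88.8, 129.2, 74.8, 92.8 and 73.0 CPM in IRE1KO libraries 1 to 5 and at 62.7, 64.3, 68.0 and 33.97 CPM in WT libraries 1 to 4. Its groups did not overlap either, with a log2 fold change of 0.68 ± 0.23 SE and 0.205 as its adjusted p (edgeR). Il6, Nfkbia, Tnfaip3 and Ptgs2 had groups that overlapped. Il6 was at 4.32 ± 0.996 CPM in IRE1KO (SD, n = 5) against 4.21 ± 0.883 CPM in WT (SD, n = 4). Nfkbia, the inhibitor induced by NF-kB itself, was at 29.3 ± 2.46 and 31.1 ± 3.73 CPM, and Tnfaip3 (A20), another feedback inhibitor, at 19.5 ± 1.14 and 23.3 ± 6.51 CPM. Ptgs2, the inducible cyclooxygenase, was at 417.1 ± 50.3 and 445.2 ± 329.1 CPM. Of the 23 genes, 14 had a fold change above 0 and 9 below, with a median log2 fold change of 0.04, beside -0.005 for all tested genes.

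**Figure D5:**
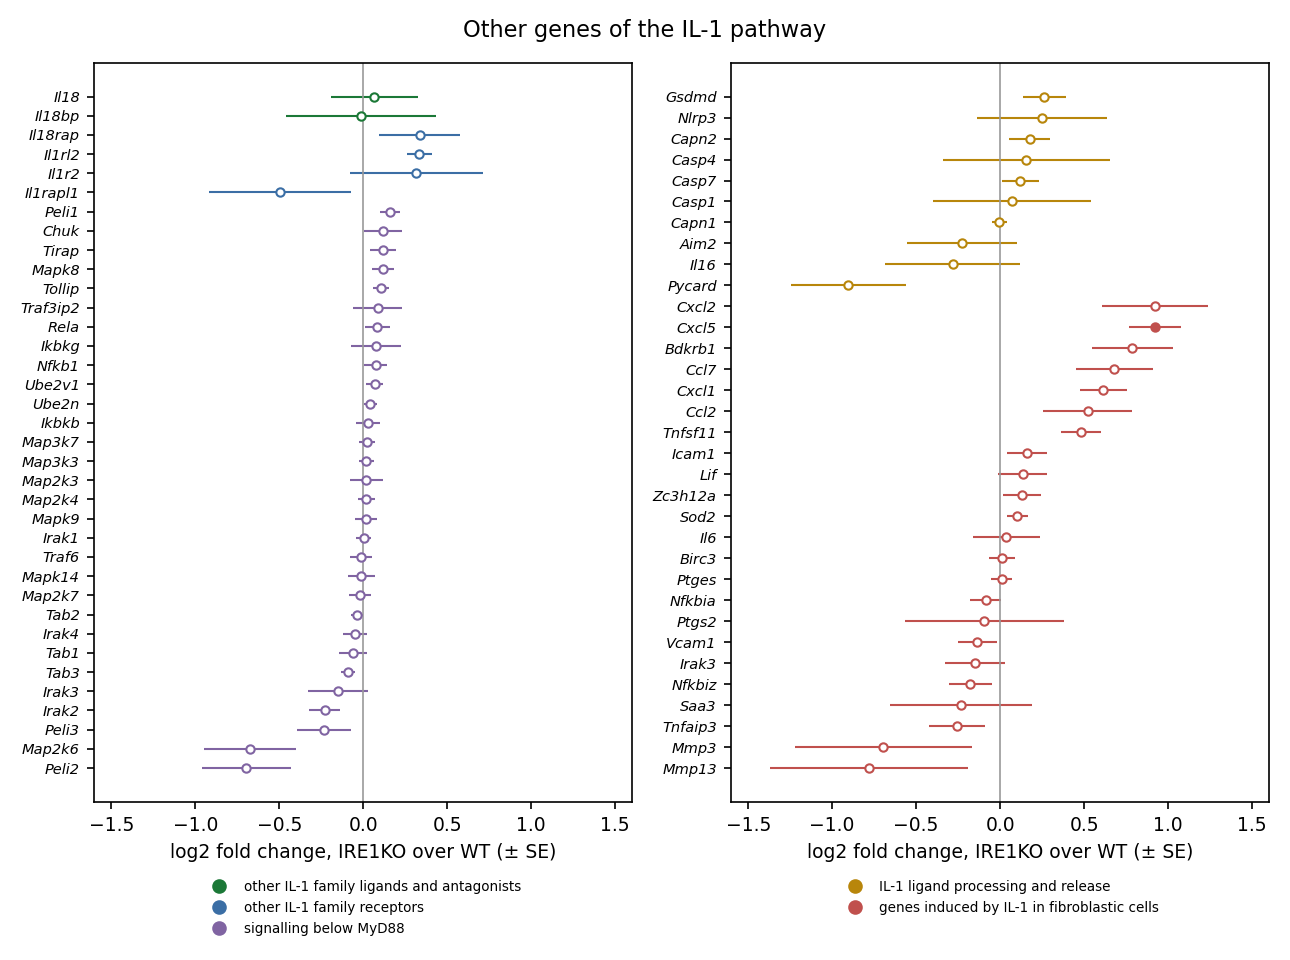
Log2 fold change, IRE1KO over WT, with SE (x axis) of tested pathway genes outside the set, by list and ordered by size; the filled point passed at an adjusted p under 0.05 in edgeR. Signalling genes cluster near 0 (median 0.02), and Cxcl5, at 0.92, is the filled point.

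Mast cells and lymphoid cells are known carriers of Il1rl1, and some of their markers were at 0 while others were counted. Of 9 mast cell markers, Fcer1a, Ms4a2, Mcpt4, Tpsb2 and Gata1 had 0 counts in every library, and the summed level of the list was 0.159 to 0.775 CPM in IRE1KO and 0.102 to 1.10 CPM in WT, against at least 69.6 CPM of Il1rl1. The mast cell marker Hdc reached 17 counts. Of 10 markers of lymphocytes and group 2 innate lymphoid cells, Cd3e, Cd3g and Il13 were at 0. The sum was 5.21 to 7.07 CPM in IRE1KO and 6.42 to 11.4 CPM in WT, mostly from Gata3, which other cells also express. Gata3 was at 4.20 to 5.38 CPM in IRE1KO and 5.20 to 10.3 CPM in WT, with a log2 fold change of -0.671. Il7r was at 0.528 to 1.00 CPM in IRE1KO and 0.0513 to 0.664 CPM in WT, Cd4 reached 12 counts and Areg 10. Macrophage and osteoclast markers were present, with all 10 tested, none passing in edgeR, and a sum of 309.4 to 473.9 CPM in IRE1KO and 203.1 to 440.3 CPM in WT. The sum was mostly from Ctsk, at 173.3 to 214.5 CPM in IRE1KO and 123.3 to 202.6 CPM in WT, and Lyz2. Lyz2 was at 71.4 to 163.0 CPM in IRE1KO and 42.8 to 146.8 CPM in WT, and Ptprc at 2.41 to 9.48 CPM over all libraries. In bulk RNA, fewer cells of a type and less RNA per cell cannot be told apart.

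Glial markers differed between the groups in the direction opposite to Il1rl1. The sum of 7 markers was 12.7 to 17.1 CPM in IRE1KO and 19.7 to 62.8 CPM in WT, lowest among WT in library 1 and highest in library 4, although none of the 6 tested passed in edgeR. Sox10, the defining factor of the glial lineage, was at 0.0 to 0.973 CPM in IRE1KO and at 0.970 to 9.83 CPM in WT. Of 7 endothelial markers, 4 were tested and 1, Pecam1, passed in edgeR (adjusted p = 0.0497), where 0.634% of all tested genes did. Pecam1 was at 0.562 to 0.924 CPM in WT and 0.0531 to 0.291 CPM in IRE1KO, with at most 18 counts in any library. Cdh5, Kdr and Tek did not pass, with log2 fold changes of -0.355, -0.026 and -0.503. The sum of the list was 7.97 to 11.8 CPM in IRE1KO and 8.67 to 21.5 CPM in WT. The part of these cell types in the difference of Il1rl1 was not tested.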

How the data were processed

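The authors deposited a table of unnormalized counts, 1 integer for each gene in each library, whose columns carry the names of sorted alignments, per the file headers. The submitters' processing notes name STAR, limma and mm10 but no version. Which program counted the reads, on which annotation and with what strand setting, is not given in the sources used here. Libraries were strand-marked, from polyadenylated RNA, and made and sequenced together, per the labels' protocols.

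Members were matched by symbol and placed by Ensembl identifier in GENCODE M21 (GRCm38), which gave a position for 24957 of 25860 genes; lengths are all annotated exons merged. Promoters came from RefSeq (GRCm38.p6) and matched 8 members. Counts were filtered with filterByExpr (13712 genes left), scaled by TMM and compared, genotype as sole term, with the robust quasi-likelihood test of edgeR 4.0.16 in R 4.3.3, with Benjamini-Hochberg adjustment over all tested genes; limma 3.58.1 (voom) and DESeq2 1.42.0 were alternatives. On simulated counts of this comparison with 13712 genes, recovery was 60% for genes changed 1.5-fold, 84% for 2-fold and 80% for 2.5-fold. Of 172 simulated calls, 6.4% were false. The simulation gave both groups the same spread for each gene and set no library apart, so these shares need not hold for the real libraries. Members, gene lists and tests were chosen with earlier results of these data known. The text names all members, the called genes and otherwise the 4 with the smallest p of each pathway list, receptor genes in the cluster of Il1rl1, cell type markers, and the 5 genes most like it by each measure; Map4k4, Slc9a2, Irak1, Traf6, Casp1, Nlrp3, Il6, Nfkbia, Tnfaip3, Ptgs2, Ccl7 and Id3 were chosen after their values were seen. In the text and the figure, 1 gene that this rule names is not reported here. Replicate numbers were not taken to pair the libraries, a choice that the correlations given below cannot settle.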

Additional observations from a re-analysis of the deposited data

Results flagged for a closer look

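Of 58 groups of libraries checked for members, ratios and named pathway genes, 3 had a library far from the others by Dixon's criterion, where chance flags about 1 in 20. Il33 in IRE1KO library 4 was at 11.5 CPM, against 5.95 to 7.42 CPM in the other IRE1KO libraries. The same library had an Il1rl1 to Il33 ratio of 11.1 per kilobase, against 20.6 to 22.9. Peli1 in IRE1KO library 2 was at 32.6 CPM, against 29.2 to 30.02 CPM.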

How the results depend on the processing

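The number of genes called between genotypes, 87 in edgeR, was 87 with RLE size factors, 568 with DESeq2, 16 with limma voom, 45 without a low-count filter and 2 to 1192 when 1 library was left out, with 399 without WT library 4 and 1192 without WT library 1. The 1 pathway gene called (Cxcl5) became 4 with DESeq2 and 0 with limma voom or without a filter, and 0 to 5 when 1 library was left out; without WT library 1 these were Cxcl5, Il1rl2, Tollip, Peli1 and, lower, Vcam1. With the replicate number as a block over libraries 1 to 4, 0 genes and 0 pathway genes were called; the same 8 libraries without the block, an alternative chosen after seeing the data, gave 3 and 0. At an unadjusted p under 0.05 the blocked edgeR fit had 1594 genes, 11 of them in the pathway. Same-numbered libraries had correlations of deviations of 0.151, -0.204, -0.194 and 0.473, and 4 of 8 libraries correlated best with their own number. These values do not settle whether the libraries are paired, and the main fit did not take the numbers to pair them.

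Of 90 refits of the 6 members' log2 fold changes, 89 moved by less than the spread between replicates, and Il33 moved to 0.46 without WT library 4. The log2 fold change of Il1rl1 was 1.09 to 1.47 over fits that left out 1 library, while the signs for Il33, Il1rn and Myd88 turned when a single WT library was left out. The adjusted p that placed Il1rl1 in the set was 0.0497 with RLE size factors and 0.0618 without a low-count filter, both in edgeR. It was 2.88e-06 with DESeq2, 0.0573 with limma voom and 0.187 in the blocked edgeR fit. The sign of Il1r1 turned without WT library 3 or 4, without IRE1KO library 3 or 5 (0.0084 and 0.0024), with limma voom (0.0345) and in the blocked fit (0.0556), and that of Il33 also with limma voom (0.0086). The log2 ratio of Il33 to Il1rl1 was lower in IRE1KO by -1.91 to -0.57 and that of Il1rap to Il1rl1 by -1.50 to -0.95 when 1 library was left out. The lowest bound of Il1rn over Il1a and Il1b, 3.59 on the log2 scale, was 5.13 without division by length. Depth limits Il1a and Il1b, at or under 3 counts in every library.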
